A study of Mus musculus with 8 samples.

Results

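The genes described here make cholesterol, move it inside the cell, export or esterify it, and control their own expression through the transcription factor SREBP2. They were 30 named mouse genes, and every non-control probe of the array whose accession belonged to one of them was taken, whatever its signal. This gave 42 probes among 39429, of which 28663 could be named and stood for 21612 gene symbols. A pair of probes stood for each of 12 genes and 1 probe for each of the other 18.

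AML12 is a mouse hepatocyte line derived from liver of mice that carry a human TGF-alpha transgene. The cells grew in DMEM F-12 medium with 10% fetal bovine serum, either without irisin (4 samples, called control) or with 0.5 µg/ml irisin, a peptide cut from the membrane protein Fndc5, for 24 h (4 samples, called irisin). Total RNA of each sample was labelled with Cy3 and hybridised to its own one-colour array, and the comparison asks which genes differ after irisin. Nothing in the sources says that the 4 samples of a group came from separate cultures, so the p-values measure only the spread between these samples, which may be technical. Serum was present in both groups and supplies cholesterol in lipoproteins.

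Sterol synthesis starts from acetyl-CoA, passes through mevalonate and the isoprenoids to squalene, closes the ring as lanosterol and ends in cholesterol. When membrane cholesterol is low, SCAP carries SREBP2 from the endoplasmic reticulum to the Golgi, where the proteases encoded by Mbtps1 and Mbtps2 release its active part, which switches on nearly all genes of the pathway. When cholesterol is high, INSIG proteins hold SCAP back, and cells instead export sterol through ABC transporters or store it as esters made by Soat1.

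SREBP2 binds sterol regulatory elements in the promoters of these genes, usually beside sites of NF-Y and Sp1. Promoter stretches came from a table of RefSeq promoters (GRCm38.p6) in which 24 of the 30 genes were matched, each window running from 250 bases before to 50 bases after a transcription start. Promoters of Fdps, Fdft1, Sqle, Stard4, Npc1 and Abcg1 were not analysed here. The motifs searched on both strands were the sterol regulatory element core TCACNCCAC, the NF-Y box CCAAT and the Sp1 box GGGCGG, and matches to different motifs can share end letters. The sterol core was found in 1 of the 24 genes, Hmgcs1, and in 1.44% of all 27025 genes with an entry. A CCAAT box lay in 19 of the 24 sterol genes (79.2%) and in 41.1% of all genes. A GGGCGG box lay in 22 of the 24 (91.7%) and in 38.2% of all genes, and both boxes lay together in 17 of the 24 (70.8%) and in 14.5% of all genes. All genes with an entry served as the comparison, and they were not matched to the sterol genes for expression or base composition. A match describes the letters and is not a measured site, and a missing match says only that these letters are not in the window.

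The 250 bases before the start are printed for Hmgcs1, the only one of the 24 searched genes with the sterol core, and for Acat2 and Mvd, the genes whose arrays did not overlap between the groups in the comparison described next. The stretches are chr13:119690101-119690350 on the plus strand for Hmgcs1, chr17:12960726-12960975 on the minus strand for Acat2 and chr8:122443423-122443672 on the minus strand for Mvd. They are written 5′ to 3′ toward the start, with matches to the motifs on either strand in capitals.
Hmgcs1: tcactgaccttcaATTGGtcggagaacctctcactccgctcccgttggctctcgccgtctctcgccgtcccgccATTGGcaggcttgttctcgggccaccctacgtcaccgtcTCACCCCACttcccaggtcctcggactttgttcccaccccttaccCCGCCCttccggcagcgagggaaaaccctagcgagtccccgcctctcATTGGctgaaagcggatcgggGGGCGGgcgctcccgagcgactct
Acat2: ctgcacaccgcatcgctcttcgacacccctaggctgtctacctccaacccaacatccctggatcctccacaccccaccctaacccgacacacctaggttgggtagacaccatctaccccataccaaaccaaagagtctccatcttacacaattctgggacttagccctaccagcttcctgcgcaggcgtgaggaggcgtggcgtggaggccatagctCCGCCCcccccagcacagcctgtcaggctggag
Mvd: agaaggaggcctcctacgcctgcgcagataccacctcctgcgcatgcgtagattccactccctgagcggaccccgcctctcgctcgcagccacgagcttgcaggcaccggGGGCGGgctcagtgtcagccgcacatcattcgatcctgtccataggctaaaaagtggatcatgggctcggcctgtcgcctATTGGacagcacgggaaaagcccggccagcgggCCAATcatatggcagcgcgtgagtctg
In Hmgcs1 the sterol core began 137 bases before the start, among 3 CCAAT and 2 GGGCGG boxes. Acat2 held 1 GGGCGG box, 33 bases before the start, and no CCAAT box in this stretch. Mvd held CCAAT boxes 60 and 27 bases before the start and 1 GGGCGG box 140 bases before it.

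Levels are given as the log2 of the processed signal minus that array's 75th percentile over probes, so that 0 is the 75th percentile of the array, and a change is the irisin mean minus the control mean on that log2 scale. The 75th percentile itself was 372 to 534 signal units on the control arrays and 682 to 850 on the irisin arrays, without overlap, so every change below is relative to the bulk of the probes on an array. On single arrays 59.5% to 64.1% of probes cleared the scanner's test of being well above background. Each group was hybridised on 1 slide of its own and scanned with it, so slide, scan and irisin cannot be told apart. Of 9 hepatocyte markers, including Alb, Ttr and Hnf4a, 9 were well above background on all 8 arrays and none was called, while their summed signal, in multiples of the 75th percentile, was 455 to 508 in control and 368 to 438 in irisin. The brightest of them, Krt18 (-0.47, adjusted p = 0.00522 in limma) and Trf (-0.39, adjusted p = 0.0204), were lower without overlap between the groups (19.7% of all tested genes). Another probe of Trf changed by -0.16. Alb (0.11) and Fgb (0.14) lay above 0. The stellate cell markers Des, Lrat, Reln and Pdgfrb, the macrophage marker Lyz2 and the endothelial marker Cdh5 cleared that test on no array. Of the lists, 3 of 4 cholangiocyte, 2 of 5 macrophage, 1 of 5 stellate or fibroblast and 2 of 4 endothelial markers were well above background on all 8 arrays. Summed signals were 42.5 to 50.3 in control and 41.1 to 48.0 in irisin for the cholangiocyte markers, 0.527 to 0.623 and 0.455 to 0.538 for the macrophage markers, 0.033 to 0.043 and 0.031 to 0.039 for the stellate or fibroblast markers, and 0.699 to 0.786 and 0.412 to 0.582 for the endothelial markers, of which Pecam1 was called lower (-0.61). Kdr, the brightest endothelial marker, was at -0.51 in control and -1.07 in irisin (-0.56, adjusted p = 0.00441 in limma) and was not called. The macrophage marker Csf1r changed by -0.49 (adjusted p = 0.00139 in limma) and another of its probes by -0.74, while Cd68 changed by 0.01. Kdr and Csf1r were lower without overlap. The part of these shifts in the sterol results was not tested. In such bulk samples fewer cells of a type and less RNA per cell cannot be told apart.

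With irisin the sterol genes stayed close to the bulk of the genes on the arrays. Of the 30 genes, 29 had a probe well above background on all 8 arrays and were tested, the exception being the exporter Abcg1, whose only probe did not clear that test anywhere. A gene was called when its brightest probe changed at least 1.5-fold with an adjusted p under 0.05 (limma, Benjamini-Hochberg over 24091 probes). By this rule 0 of the 29 genes rose, where 0.531% of all 14308 tested genes rose, and 1 fell, where 10.2% of all tested genes fell. That last share was uneven over brightness. It was 48.1% in the dimmest of 10 equal groups by signal, which holds 0 of the sterol genes, and 1.12% in the brightest, which holds 7. The gene that fell was Acat2, the cytosolic thiolase that joins acetyl-CoA units in the first step of the mevalonate branch. At an unadjusted p under 0.05 in limma 1 gene was higher (Hsd17b7) and 5 were lower, against 5.94% and 23.6% of all tested genes, and the methods' test also called 0 higher and 1 lower.

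With the adjusted p alone, 3 sterol genes were lower (Acat2, Sqle and Ebp; 17.9% of all tested genes) and 0 higher (2.65%). Changes of the 29 genes ran from -0.63 in Acat2 to 0.33 in Abca1, 21 of them below 0 and 8 above, while 64.0% of all tested genes lay below 0. Their median change was -0.095, and that of all tested genes was -0.064. The arrays of the groups did not overlap for 2 genes, Acat2 and Mvd, both lower in irisin (19.7% of all tested genes), and for 0 genes higher in irisin (4.16%).

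The precision of the arrays bounds these changes. The distance from a change to either end of its 95% interval ran from 0.169 to 0.390 over the 29 genes, with a median of 0.226. The interval lay wholly within 1.5-fold in either direction for 27 of the 29 genes, the exceptions being Acat2 and Abca1, when each gene is read from its brightest probe. On the second probe of Mbtps2 it reached past 1.5-fold, to -0.63. By the brightest probe it included 0 for 23 of them. For most of the pathway the interval on the scaled arrays therefore stayed under 1.5-fold, without showing that the change was 0.

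**Figure D1:**
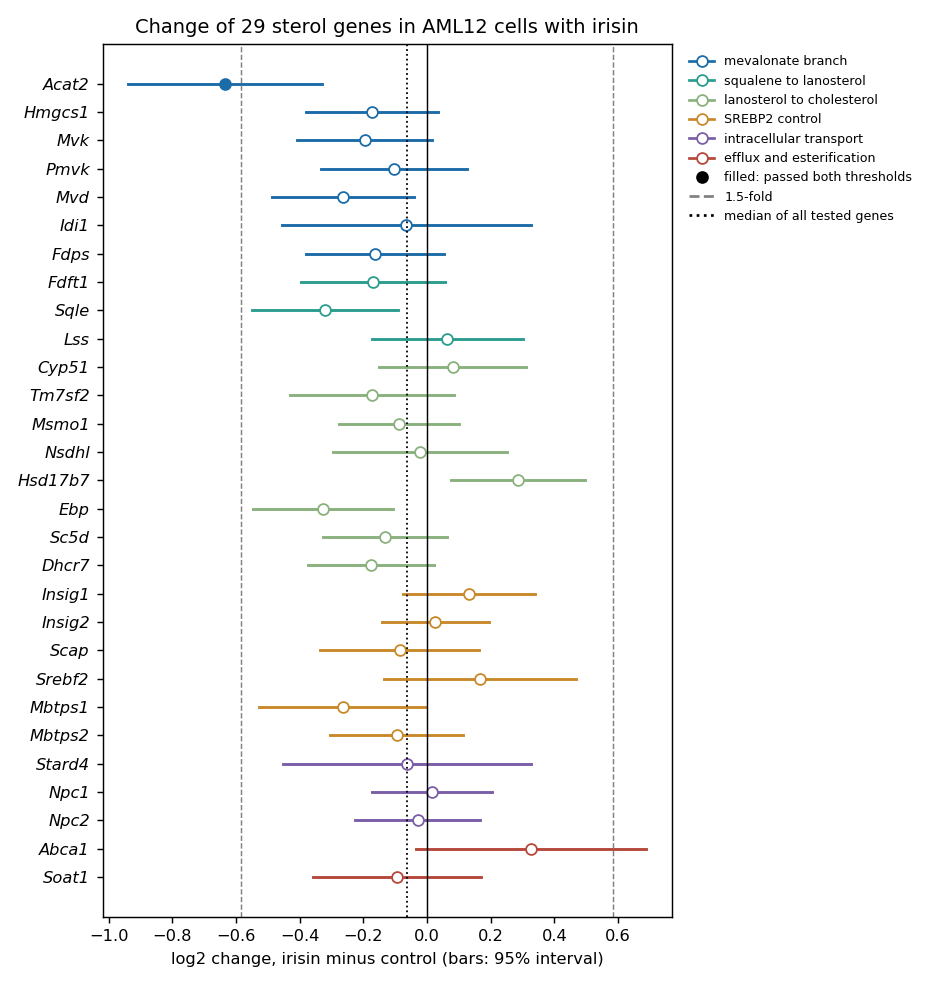
Log2 change, irisin minus control, of the 29 tested sterol genes (points, n = 4 arrays per group) with 95% intervals (bars), coloured by role, with a filled point for a gene past both thresholds. Acat2 at -0.63 is the only filled point, and the interval of Abca1 is the only other one that crosses a dashed 1.5-fold line.

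Acat2 had log2 levels of -2.13, -2.33, -2.63 and -2.46 in control replicates 1 to 4 and of -3.00, -2.70, -3.19 and -3.19 in irisin replicates 1 to 4. All irisin arrays lay below all control arrays, the nearest being control replicate 3 and irisin replicate 2. The means were -2.39 ± 0.21 and -3.02 ± 0.23 (SD, n = 4 each), a fall of 1.55-fold (log2 change -0.63, SE 0.14, adjusted p = 0.00604 in limma, exact permutation p = 0.0286, the smallest that 4 against 4 allows). Its 95% interval, -0.94 to -0.33, reached on both sides of the 1.5-fold line. Before scaling, the Acat2 signal was 84.8 to 96.8 units in control and 88.4 to 105 in irisin, overlapping, while the 75th percentile of the arrays was higher in irisin. Without scaling its change was 0.10 (adjusted p = 0.556), and with scaling to the spike-in probes it was -0.06 (adjusted p = 0.83).

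Acat2 shares its name with a family of thiolases, of which a pair was looked at after the values were seen. Acat3, a near copy that neighbours it on chromosome 17, changed by 0.11 (adjusted p = 0.430), and Acat1, the mitochondrial thiolase, by -0.004 (adjusted p = 0.985). Neither followed Acat2. Transcripts of Acat2 and Acat3 are alike enough that a probe could bind both, and this was not tested.

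The other genes of the mevalonate branch had smaller changes, and none of them was called. All 7 genes of the branch lay below 0, with a median change of -0.17. Mvd, which decarboxylates mevalonate diphosphate, had levels of 0.45, 0.46, 0.68 and 0.47 in control and 0.17, 0.38, 0.07 and 0.39 in irisin. The groups did not overlap, with the lowest control array at 0.45 and the highest irisin array at 0.39. The change was -0.26 (SE 0.10, 95% interval -0.49 to -0.04), which did not pass the adjusted test (adjusted p = 0.0856, exact permutation p = 0.0286).

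Mvk, the kinase that phosphorylates mevalonate, had levels of 3.42, 3.35, 3.53 and 3.48 in control and 3.05, 3.40, 3.22 and 3.33 in irisin. Only irisin replicate 2 reached into the control range, and the change was -0.20 (adjusted p = 0.181). Hmgcs1, the cytosolic synthase of HMG-CoA and a classical SREBP2 target, changed by -0.17 (adjusted p = 0.228), with control arrays between 4.23 and 4.43 and irisin arrays between 3.93 and 4.26. Its arrays overlapped between the groups. Fdps, which makes farnesyl diphosphate, changed by -0.16, Pmvk by -0.10 and Idi1, the isomerase of isopentenyl diphosphate, by -0.06. Idi1 was among the most variable of the genes, from 3.40 to 3.84 in control and from 3.03 to 3.91 in irisin.

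The genes from squalene to lanosterol did not move together. Sqle, the squalene epoxidase that is a rate-limiting step of the late pathway, had levels of 4.38, 4.31, 4.19 and 4.34 in control and 3.94, 4.24, 3.80 and 3.97 in irisin. Only irisin replicate 2 overlapped the control arrays. Its change was -0.32 (SE 0.10, 95% interval -0.55 to -0.09, adjusted p = 0.0458, exact permutation p = 0.0571), under 1.5-fold, and it was -0.22 with quantile normalization (adjusted p = 0.0821). Fdft1, the squalene synthase, changed by -0.17 and Lss, which closes the ring, by 0.06.

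Among the 8 genes from lanosterol to cholesterol, 6 lay below 0 and 2 above, with a median of -0.11 and 0 called. Ebp, the sterol isomerase, had levels of 6.86, 6.72, 6.68 and 6.86 in control and 6.37, 6.69, 6.34 and 6.42 in irisin. Again only irisin replicate 2 lay inside the control range. The change was -0.33 (SE 0.10, 95% interval -0.55 to -0.11, adjusted p = 0.0348, exact permutation p = 0.0571). Ebp belongs to the brightest of 10 equal groups of the tested genes, whose median change was -0.15, and set against that median it stood at -0.18. Its change was 0.04 with quantile normalization (adjusted p = 0.732) and -0.10 with cyclic loess (adjusted p = 0.344). It was -0.28 with normexp background correction (adjusted p = 0.0161) and -0.34 with scaling to the median of detected probes (adjusted p = 0.0322). The part of brightness in the Ebp change was not tested.

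Dhcr7, the reductase of the last step, had levels of 0.47, 0.48, 0.49 and 0.34 in control and 0.34, 0.37, 0.08 and 0.28 in irisin, a change of -0.18 (adjusted p = 0.200). Tm7sf2, another sterol reductase, had levels of 2.73, 2.73, 3.04 and 3.08 in control and 2.57, 2.87, 2.61 and 2.83 in irisin, a change of -0.17 (adjusted p = 0.341). Both overlapped between the groups. Cyp51, the lanosterol demethylase, changed by 0.08, Msmo1 by -0.09, Nsdhl by -0.02 and Sc5d, a sterol desaturase, by -0.13. These 4 had adjusted p-values of 0.337 or more.

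Hsd17b7, which reduces a sterol ketone during demethylation, gave opposite answers from its probes. The brighter probe read 0.22, 0.10, -0.05 and -0.13 in control and 0.22, 0.34, 0.38 and 0.35 in irisin, a change of 0.29 (95% interval 0.07 to 0.50, adjusted p = 0.0517). The second read -1.71, -1.74, -1.88 and -1.89 in control and -2.05, -2.01, -2.14 and -2.10 in irisin, a change of -0.27 (95% interval -0.45 to -0.09, adjusted p = 0.0334). The groups did not overlap on the second probe and met on the brighter one at irisin replicate 1 and control replicate 1, so no direction is given for the gene.

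**Figure D2:**
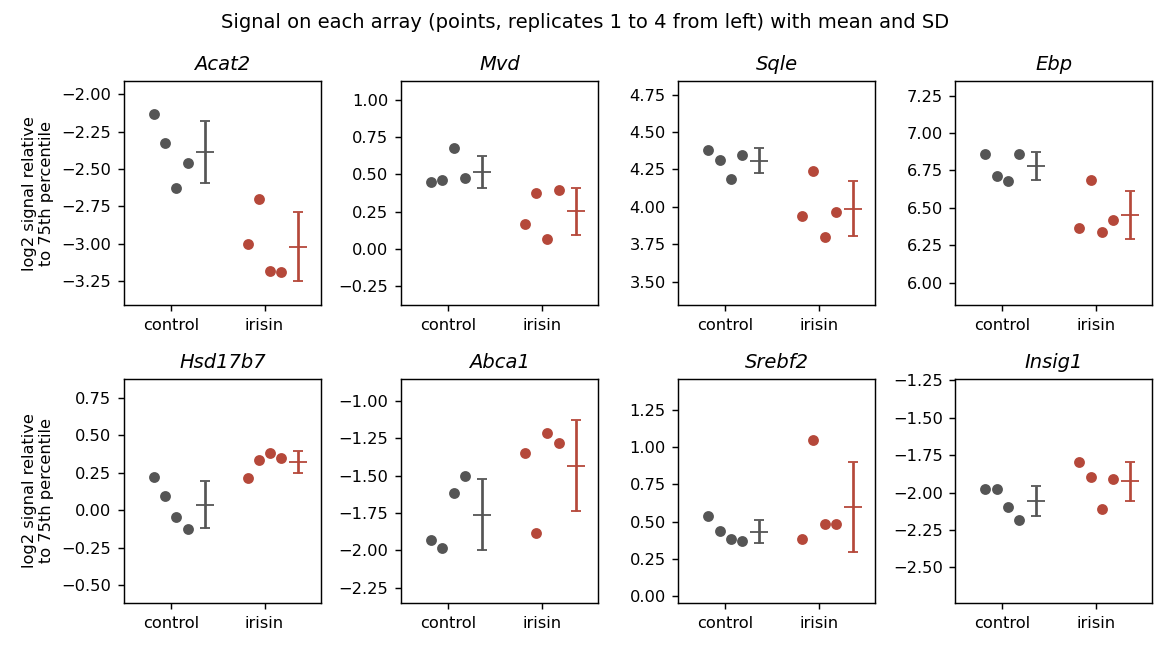
Log2 signal relative to the array's 75th percentile on each of the 8 arrays (points, replicates 1 to 4 from left to right) with the mean and SD of each group, for 8 sterol genes by their brightest probe; every panel spans the same log2 range. Control and irisin points are apart for Acat2 and Mvd and overlap for the other 6 genes, and irisin replicate 2 stands high for Srebf2.

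The genes of SREBP2 control stayed within 1.5-fold, with 3 above 0, 3 below 0, a median of -0.03 and 0 called. Srebf2, which encodes SREBP2 itself, had levels of 0.54, 0.44, 0.38 and 0.37 in control and 0.39, 1.04, 0.48 and 0.48 in irisin. Irisin replicate 2 stood apart from the other arrays and carried most of the change of 0.17 (95% interval -0.14 to 0.47, adjusted p = 0.448), which was 0.02 without that array. Its second probe changed by -0.04.

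Insig1, the SREBP2 target that retains SCAP, had levels of -1.98, -1.98, -2.10 and -2.18 in control and -1.80, -1.89, -2.11 and -1.91 in irisin, a change of 0.13 (adjusted p = 0.369). Insig2, its relative, had levels of 1.47, 1.45, 1.59 and 1.57 in control and 1.47, 1.56, 1.57 and 1.59 in irisin, a change of 0.03 (adjusted p = 0.857). Scap, the escort of SREBP2, had levels of 3.94, 4.09, 4.31 and 4.18 in control and 3.80, 4.21, 4.06 and 4.10 in irisin, a change of -0.09 (adjusted p = 0.659). The groups overlapped for all 3 genes.

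Mbtps1, the Golgi protease that makes the first cut, had levels of 4.22, 4.15, 4.07 and 4.25 in control and 3.88, 4.21, 3.63 and 3.90 in irisin. Its change was -0.26 (95% interval -0.53 to -0.003, adjusted p = 0.141), and only irisin replicate 2 reached the control range. The second probe of Mbtps1 changed by -0.03. Mbtps2, the protease of the following cut, had levels of -3.38, -3.25, -3.02 and -3.14 in control and -3.34, -3.35, -3.21 and -3.26 in irisin on its brighter probe, a change of -0.09 (adjusted p = 0.542). The second probe read -3.43, -3.20, -3.15 and -3.09 in control and -3.60, -3.56, -3.74 and -3.65 in irisin, without overlap, a change of -0.42 (SE 0.09, 95% interval -0.63 to -0.22, adjusted p = 0.00687). So the size of the Mbtps2 change depended on the probe, and neither probe passed 1.5-fold.

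The 3 genes of transport within the cell had a median change of -0.03, and 0 was called. Npc1, the lysosomal membrane protein that lets cholesterol out, had levels of -1.34, -1.30, -1.36 and -1.45 in control and -1.23, -1.32, -1.49 and -1.33 in irisin, a change of 0.02 (95% interval -0.17 to 0.20). Npc2, its soluble partner, had levels of 3.25, 3.22, 3.30 and 3.16 in control and 3.31, 3.30, 3.03 and 3.17 in irisin, a change of -0.03 (95% interval -0.23 to 0.17). Both intervals were narrow and included 0.

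Stard4, a cytosolic sterol carrier and SREBP2 target, spread widely among the control arrays on its brighter probe, at 0.63, 0.32, -0.12 and 0.75, against 0.13, 0.53, 0.28 and 0.38 in irisin. The change was -0.06 (95% interval -0.45 to 0.33). Its second probe read 0.08, 0.03, 0.20 and 0.08 in control and 0.22, 0.35, 0.36 and 0.41 in irisin, a change of 0.24 (95% interval 0.06 to 0.42, adjusted p = 0.0545). On that probe all irisin arrays lay above all control arrays (4.18% of all tested probes), and the probes of Stard4 differed in sign.

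Of the genes of efflux and esterification, 2 of 3 were tested and 0 was called. Abca1, the exporter of cholesterol to apolipoprotein acceptors, had levels of -1.93, -1.99, -1.62 and -1.50 in control and -1.35, -1.89, -1.22 and -1.28 in irisin. Irisin replicate 2 lay among the control arrays and the other irisin arrays above them. The change was the highest of the 29 genes, 0.33, with a wide interval (-0.03 to 0.69, adjusted p = 0.190, exact permutation p = 0.143). Soat1, which esterifies cholesterol in the endoplasmic reticulum, had levels of -1.34, -1.53, -1.17 and -1.41 in control and -1.28, -1.31, -1.72 and -1.52 in irisin, a change of -0.10 (adjusted p = 0.639).

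Both probes were tested for 11 genes. Among the 10 whose second probe was well above background on all 8 arrays, the changes had opposite signs for Hsd17b7, Srebf2 and Stard4. The second probe of Hmgcs1 was dim, near -6.29 in control and -6.11 in irisin, and failed on a control array. It was tested only through the irisin group, so its change of 0.18 (adjusted p = 0.533) is not read against that of the brighter probe. The second probe of Fdft1 was well above background on 6 of 8 arrays and was not tested. Over all 40 tested sterol probes 0 were called higher (0.714% of all tested probes) and 1 lower (11.7%). The groups lay apart on 4 probes lower in irisin, those of Acat2 and Mvd and the second ones of Hsd17b7 and Mbtps2 (23% of all tested probes).

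**Figure D3:**
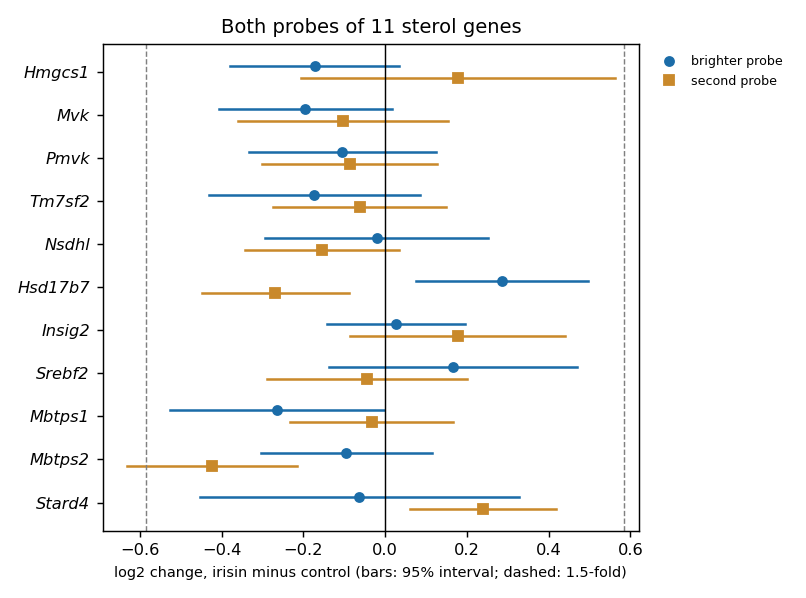
Log2 change, irisin minus control (n = 4 arrays per group), of the brighter (circles) and the second probe (squares) of the 11 sterol genes with 2 tested probes, with 95% intervals and dashed lines at 1.5-fold. The intervals of the probes do not meet for Hsd17b7 (0.29 and -0.27), and the probes of Mbtps2 lie at -0.09 and -0.42.

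The irisin arrays were not alike, over these genes or over bright genes at large. Set against the irisin mean of each gene, the median over the 29 sterol genes was -0.07, 0.12, -0.11 and 0.04 in irisin replicates 1 to 4. Over all 1431 genes of the brightest of 10 equal groups by signal the same values were -0.08, 0.17, -0.09 and 0.02, and over the next brightest group -0.07, 0.14, -0.08 and 0.03. So the low sterol levels on irisin replicates 1 and 3 and the high ones on replicate 2 follow an order that bright genes share. Irisin replicate 2 was the highest irisin array for 14 of the 29 genes, and irisin replicate 3 the lowest for 12.

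**Figure D4:**
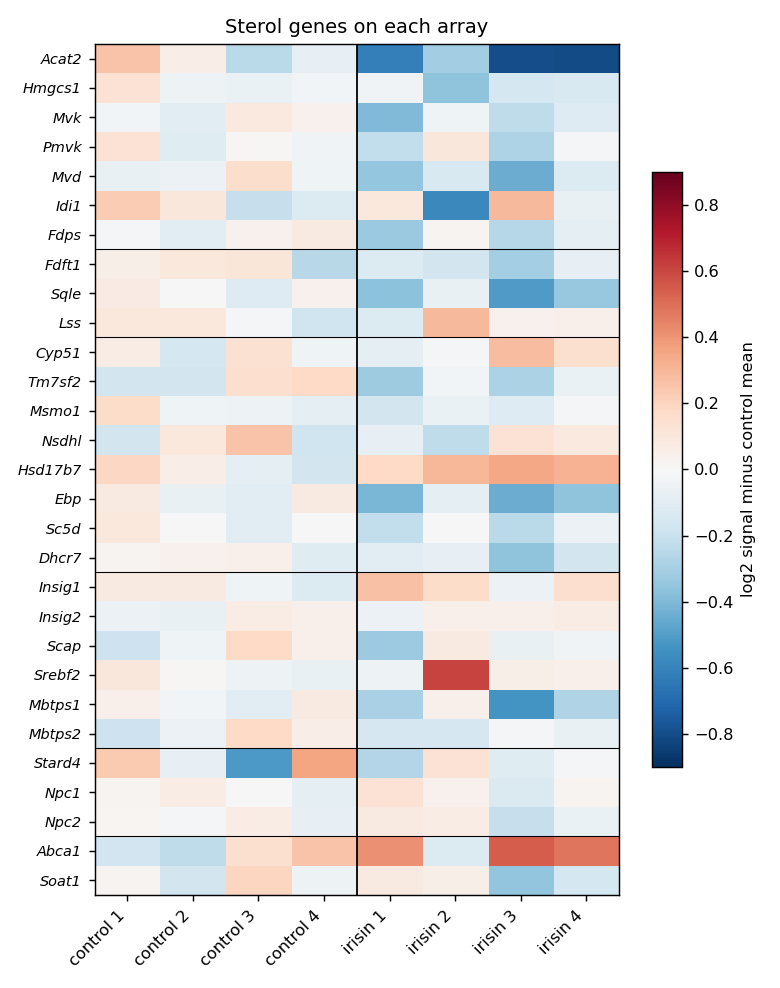
Log2 signal minus the control mean of each of the 29 tested sterol genes (rows, grouped by role with lines between the groups) on the 8 arrays (columns), by the brightest probe. Acat2 is blue on all 4 irisin arrays, Abca1 is red on irisin replicates 1, 3 and 4, and the columns of irisin replicates 1 and 3 hold more blue than that of irisin replicate 2.

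Brightness moved with the result. With all tested genes cut by signal into 10 equal groups, genes called lower made up 48.1%, 32.9% and 13.9% of the 3 dimmest groups, 3.5% of the group that holds Acat2 and 1.12% of the brightest group. Of the 29 sterol genes, 22 lay in the 5 brightest groups and 1, Mbtps2, in the 3 dimmest. Set against the median change of its own brightness group, a sterol gene changed by -0.02 in the median, and 18 of the 29 lay below that median. The 10.2% called lower over all tested genes is therefore not the share for genes as bright as most sterol genes. The part of brightness in the sterol counts was not tested.

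The scaling of the arrays set the sign of the values. Quantile normalization and cyclic loess each called 0 sterol genes, with Acat2 at -0.57 and -0.53, while scaling to 8 spike-in probes called 8 higher and 0 lower and no scaling called 18 higher and 0 lower. The median of all tested genes was 0.51 with spike-in scaling and 0.67 without scaling. Relative to it the sterol median stood at -0.03 in both settings, as it did with the 75th percentile. Leaving out control replicate 1, irisin replicate 3 or irisin replicate 4 also ended the call of Acat2, at changes of -0.55, -0.58 and -0.58.

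**Figure D5:**
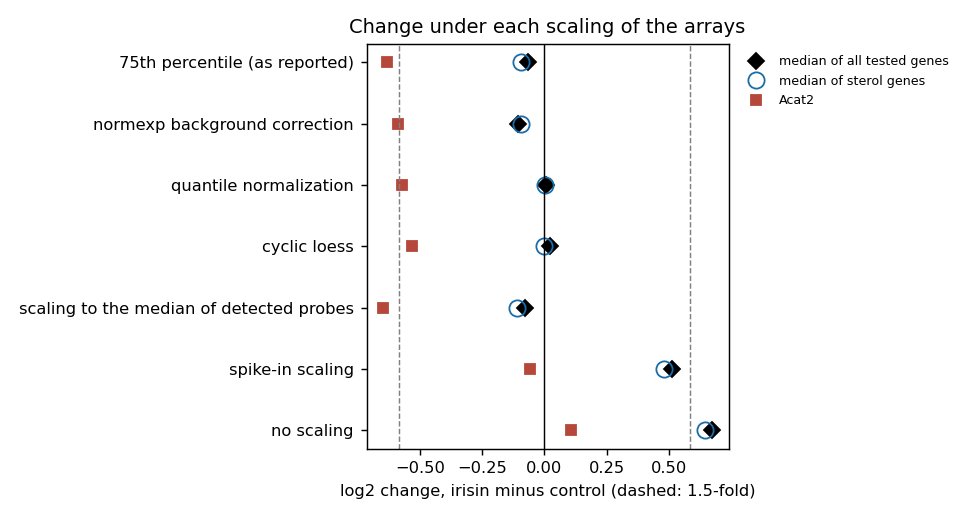
Log2 change, irisin minus control (n = 4 arrays per group), of Acat2 (squares), the median of the 29 sterol genes (circles) and the median of all tested genes (diamonds) under 7 ways of scaling or correcting the arrays, with dashed lines at 1.5-fold. The sterol median stays beside the median of all genes in every row, and Acat2 lies below both in every row.

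Genes around the pathway were looked at in 7 further lists of 61 genes, of which 55 were tested, 52 of them well above background on all 8 arrays. Their median change was -0.03, with 25 above 0 and 30 below, and 1 rose and 1 fell (0.531% and 10.2% of all tested genes). The 25 include Ch25h, Lcat and Paqr3, which were tested only through the irisin group. Pggt1b, a subunit of the enzyme that attaches geranylgeranyl groups made from mevalonate to proteins, had levels of -2.72, -2.73, -2.86 and -2.76 in control and -2.15, -2.45, -1.73 and -2.22 in irisin. The groups lay apart and the change, the only call among 9 genes of the non-sterol isoprenoid branch, was 0.63 (SE 0.14, adjusted p = 0.00554). Pltp, the phospholipid transfer protein and a target of the oxysterol receptors LXR, was dim, at -6.18, -5.93, -6.20 and -6.27 in control and -6.83, -6.54, -6.60 and -7.18 in irisin, a change of -0.64 (SE 0.14, adjusted p = 0.00639). It lies in the dimmest of the 10 brightness groups, of which 48.1% was called lower, and its call was lost with quantile normalization, with cyclic loess, and without control replicate 2 or irisin replicate 4.

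Of 12 other SREBP targets 0 were called, 3 lay above 0 and 9 below, with a median of -0.08. Lpin1, a phosphatidate phosphatase, changed most, by 0.34 (adjusted p = 0.0449). Of 8 genes of degradation and SREBP processing in the endoplasmic reticulum 0 were called and the median was -0.10, with Erlin2 at 0.36 (adjusted p = 0.0170). That median includes Paqr3, well above background on 1 of 4 control arrays, and no direction is read from its change of 0.02. These changes were under 1.5-fold.

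Of 7 lipoprotein receptors and adaptors 6 were tested and 0 called, with Lrp1, an endocytic receptor, lowest at -0.24 (adjusted p = 0.120). The 8 lysosomal and contact-site transport genes had a median of 0.02 and 0 calls, with Gramd1a at -0.27 (adjusted p = 0.159). Of the 8 genes of bile acid and oxysterol synthesis 5 were tested and 0 called. Soat2, Cyp27a1 and Hsd3b7, well above background on all 8 arrays, changed by 0.06, 0.03 and 0.01. Ch25h, the cholesterol hydroxylase that makes an oxysterol, was well above background on 3 of 4 control arrays and Lcat on 2 of 4, so both were tested only through the irisin group, and their changes, 0.39 and 0.06, are given with no direction read from them. The exporters Abcg5 and Abcg8 and the bile acid enzymes Cyp7a1, Cyp8b1 and Cyp7b1, which mark differentiated liver, were well above background on none of the arrays. Of 9 LXR receptors and targets 7 were tested, with a median of -0.02 and no call other than Pltp, and Mylip, which targets lipoprotein receptors for degradation, stood at 0.44 (adjusted p = 0.0718).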

How the data were processed

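Each of the 8 samples was measured on its own Agilent one-colour mouse array. The authors extracted the spot intensity with Feature Extraction 12 (12.0.3.1 per the file headers), and the deposited processed signal is background-subtracted but not scaled between arrays. The array design in the file headers differs from the one the methods name. Per array 43020 non-control spots were read, spots marked as outliers (0.221% to 0.463%) were left out, spots of a probe were averaged and log2 signals were scaled to the array's 75th percentile. The number of arrays limits the precision. A deposited table of the mean processed signals, equal within 0.0005%, served as an alternative. Accessions were named through RefSeq genes (GRCm38.p6; 72.7% of probes matched).

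Probes well above background on all 4 arrays of a group were tested with limma 3.58.1 in R 4.3.3 (irisin against control, no block, Benjamini-Hochberg over 24091 probes), with 1.5-fold and adjusted p under 0.05 as the authors' methods have it. The brightest probe stands for its gene. Exact two-sided permutation tests ran over all 70 assignments of the arrays. Tested on simulated data with 24021 probes, the fit recovered 74% of 100 probes changed 1.7-fold and 99% of 100 changed 2.5-fold, and called 4 unchanged probes. The simulated noise was independent between arrays, without a slide, scan or brightness shift. These figures therefore do not give the rate of false calls on the real arrays.

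The genes and lists were chosen with earlier results of these data known. Values on every array are given for called genes, the 10 largest changes, the genes of SREBP2 control, transport, efflux and esterification, and genes whose groups do not overlap. Of the further lists, called genes and the largest change are named; Mylip, Acat1 and Acat3 were added after their values were seen. The alternatives were normexp background correction (offset 50, on the median spot signal, with spots of outlying local background given the array's median background), 5 other scalings, 2 other filters, the deposited table, marked spots kept, another variance model, a replicate block, each array left out, other thresholds, the methods' test (one-way analysis of variance on each probe) and the mean over probes.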

Additional observations from a re-analysis of the deposited data

Results flagged for a closer look

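Among 94 groups of 4 arrays checked, 6 held an array far from the other 3, where chance gives about 1 in 20. Levels are on the log2 scale used above.

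Srebf2 stood at 1.04 in irisin replicate 2, while the other irisin arrays lay between 0.39 and 0.48. Mvd stood at 0.68 in control replicate 3, with the other control arrays between 0.45 and 0.47, and its change was -0.21 without that array. Control replicate 4 was low for Dhcr7, at 0.34 against 0.47 to 0.49. It was low too for Fdft1, at 1.39 against 1.69 to 1.75, and the median of the squalene to lanosterol genes, which on that array is the Fdft1 value, stood at 1.39 for the same reason. The dim second probe of Hmgcs1 stood at -5.87 in control replicate 2, with the other control arrays between -6.47 and -6.38.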

How the results depend on the processing

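The lower call of Acat2 remained with normexp, the authors' value table, marked spots kept, scaling to the detected probes' median, another variance model, probes well above background on all 8 arrays, and the methods' test (adjusted p = 0.0351). The count of sterol genes called lower was 0 with quantile normalization, cyclic loess, spike-in scaling, no scaling and a 2-fold threshold, 2 without a filter (Abcg1, not above background, was added), 3 with the adjusted p alone, and 0 to 1 with each array left out. The count called higher was 8 with spike-in scaling, 18 without scaling and 0 otherwise. For the further lists, genes called higher numbered 0 with normexp, 3 each with quantile normalization and loess, 25 with spike-in scaling, 47 without scaling, 4 with the adjusted p alone and 0 at 2-fold, and those called lower 3 with normexp, 2 with the adjusted p alone, 5 without a filter and 0 in the others named. Each ran from 0 to 1 with an array left out, the higher call being lost without irisin replicate 3 and the lower one without control replicate 2 or irisin replicate 4. The cause of these moves was not tested. The difference between the sterol median and that of all genes was 0.10 without a filter, where dim probes lower the median of all genes to -0.19, and -0.05 to 0.01 under every other setting run.

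Without scaling, all 21 sterol changes below 0 turned above it. They became 0.10 (Acat2), 0.42 (Sqle), 0.41 (Ebp), 0.47 (Mvd), 0.47 (Mbtps1), 0.57 (Hmgcs1), 0.54 (Mvk), 0.57 (Fdps), 0.57 (Fdft1), 0.57 (Tm7sf2), 0.56 (Dhcr7), 0.63 (Pmvk), 0.67 (Idi1), 0.65 (Msmo1), 0.72 (Nsdhl), 0.61 (Sc5d), 0.65 (Scap), 0.64 (Mbtps2), 0.68 (Stard4), 0.71 (Npc2) and 0.64 (Soat1), and on second probes to 0.64 (Mvk), 0.65 (Pmvk), 0.68 (Tm7sf2), 0.69 (Srebf2), 0.71 (Mbtps1), 0.58 (Nsdhl), 0.47 (Hsd17b7) and 0.31 (Mbtps2); the median of all genes was then 0.67. The dim second probe of Hmgcs1 read -0.54 with normexp but 0.69 after quantile normalization and 0.67 after loess.

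Same-numbered samples did not deviate together (correlations 0.13, -0.38, -0.14 and 0.18 over 22818 probes; samples 1 and 4 matched their own number best). With the replicate number as a block, 0 sterol genes were called higher and 1 lower, Acat2 at -0.63 with adjusted p = 0.00398, and the adjusted p of Sqle was 0.0639 and of Ebp 0.0734. Limits remain: slide and scan coincide with irisin, 4 arrays per group cannot give an exact p under 0.0286, and dim probes such as the second of Hmgcs1 and Fdft1 carry little signal over background.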
